A study of Mus musculus with 12 samples.

Results

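The 35 genes described here carry cells through mitosis and its spindle checkpoint, from the cyclins and kinases that start division to the proteins that part the daughter cells. They were chosen by name, and all 35 were found among the 23420 gene entries of both deposited count tables. The samples were R1 cells, a single mouse embryonic stem cell line, grown in serum medium with LIF on gelatin. In the knockdown group the cells received 3 different siRNAs against Krr1, a factor that assembles the small ribosomal subunit, and the 3 lysates are called siKrr1 A, siKrr1 C and siKrr1 D. In the control group the 3 lysates carry the names Lipo, siGFP and siNC. The labels speak of 3 different control siRNAs, although the name Lipo states none. All lysates were taken 48 h after transfection, and each was divided between an RNA-seq library and a ribosome profiling library, which is made from the stretches of mRNA that ribosomes shield from RNase (footprints). The series title names the small-subunit processome and the maintenance of pluripotency as its subject. The question asked here is how far the division genes moved when Krr1 was depleted.

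Reads on genes numbered 31318772 to 39670139 per RNA library and 21615934 to 28911254 per footprint library. Levels are in CPM, read counts scaled to the library's total on genes, and thus give a share of the library and not an amount per cell. The labels do not say whether lysates came from separate cultures, so each p-value measures the spread between these lysates alone. Krr1 RNA stood at 33.5, 57.5 and 67.0 CPM in siKrr1 A, C and D, against 159, 156 and 149 CPM in Lipo, siGFP and siNC. Its footprints stood at 31.2, 62.0 and 52.8 CPM in siKrr1 A, C and D, against 169, 163 and 156 CPM in Lipo, siGFP and siNC. The 3 knockdown libraries lay below the 3 controls in both assays, with log2 fold changes of -1.58 ± 0.18 in RNA and -1.77 ± 0.18 in footprints (SE; edgeR adjusted p = 0.00228 and 0.000819). All 10 stem cell markers of a fixed list, Pou5f1, Sox2 and Nanog among them, were detected; their summed RNA was 7305 to 8225 CPM in knockdown and 8569 to 8621 CPM in control libraries, and 3 of the 10 were called lower (2.11% of all tested genes were). Their summed footprints were 5164 to 5814 CPM in knockdown and 6275 to 6328 CPM in control libraries, with 1 marker called higher and 2 lower, against 3.39% and 2.68% of all tested genes. Their part in the values of the mitosis genes was not tested. Of 10 fibroblast or feeder markers, Col3a1, Postn and Lum were at 0 in all RNA libraries, and the sum of the list was 16.9 to 24.99 CPM in knockdown and 19.9 to 25.4 CPM in control libraries. The highest of the list were Fbn1, Pdgfrb and Thy1, which averaged 12.4, 4.44 and 2.44 CPM in RNA. Summed footprints of the list were 28.6 to 37.1 CPM in knockdown and 32.4 to 36.4 CPM in control libraries, and only Postn was at 0 in all of them.

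Mitosis begins when Cdk1, bound to A- and B-type cyclins, phosphorylates many proteins, while condensin compacts the chromosomes and a spindle of microtubules forms. Kinetochores join each chromosome to the spindle, and those not yet attached produce a checkpoint signal that holds back Cdc20, the activator of the anaphase-promoting complex. Once the signal ends, that ubiquitin ligase destroys cyclin B and securin, the sister chromatids part, and the central spindle and an actin ring complete division. Most of these genes are transcribed late in the cell cycle under the MuvB complexes, with B-Myb and FoxM1 as activators and the DREAM complex as repressor. Mouse embryonic stem cells cycle fast with a short gap before replication.

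As a group, the mitosis genes were close to their control levels in both assays. None of the 35 was called in RNA, where 4.8% of 14038 tested genes were called (edgeR quasi-likelihood test, p adjusted by Benjamini-Hochberg over all genes and under 0.05). At an unadjusted p under 0.05 there were 2 members, Bub1 and Gtse1, against 20.9% of all genes, and DESeq2 called 0 members. In footprints 2 of 35 (5.71%) rose, Bub1 and Cenpe, and 0 fell, where 6.07% of 13287 tested genes were called in either direction and 3.39% of all tested genes as higher. The share of members called was thus near that of all genes. The median log2 fold change of the members was 0.04 in RNA and 0.06 in footprints, beside 0.00 and 0.01 over all tested genes. In RNA, 22 of 35 members had a positive value (49.8% of all genes did), and in footprints 23 of 35 (51.5% of all genes).

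The intervals show how large a change these libraries leave room for. In RNA the 95% interval of the fold change lay within 1.5-fold either way for 34 of 35 members, against 64% of all tested genes; Cenpf, whose interval ran to -0.83 on the log2 scale, was the exception. In footprints it lay within that band for 35 of 35, against 65.6% of all tested genes. The members were well counted, with at least 618 RNA reads and 1301 footprints each in every library, and their median standard error was 0.08 in RNA and 0.06 in footprints, beside 0.12 and 0.11 over all tested genes. Because these are bulk samples, a different share of cells in mitosis and a different amount of mRNA per mitotic cell cannot be told apart.

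**Figure D1:**
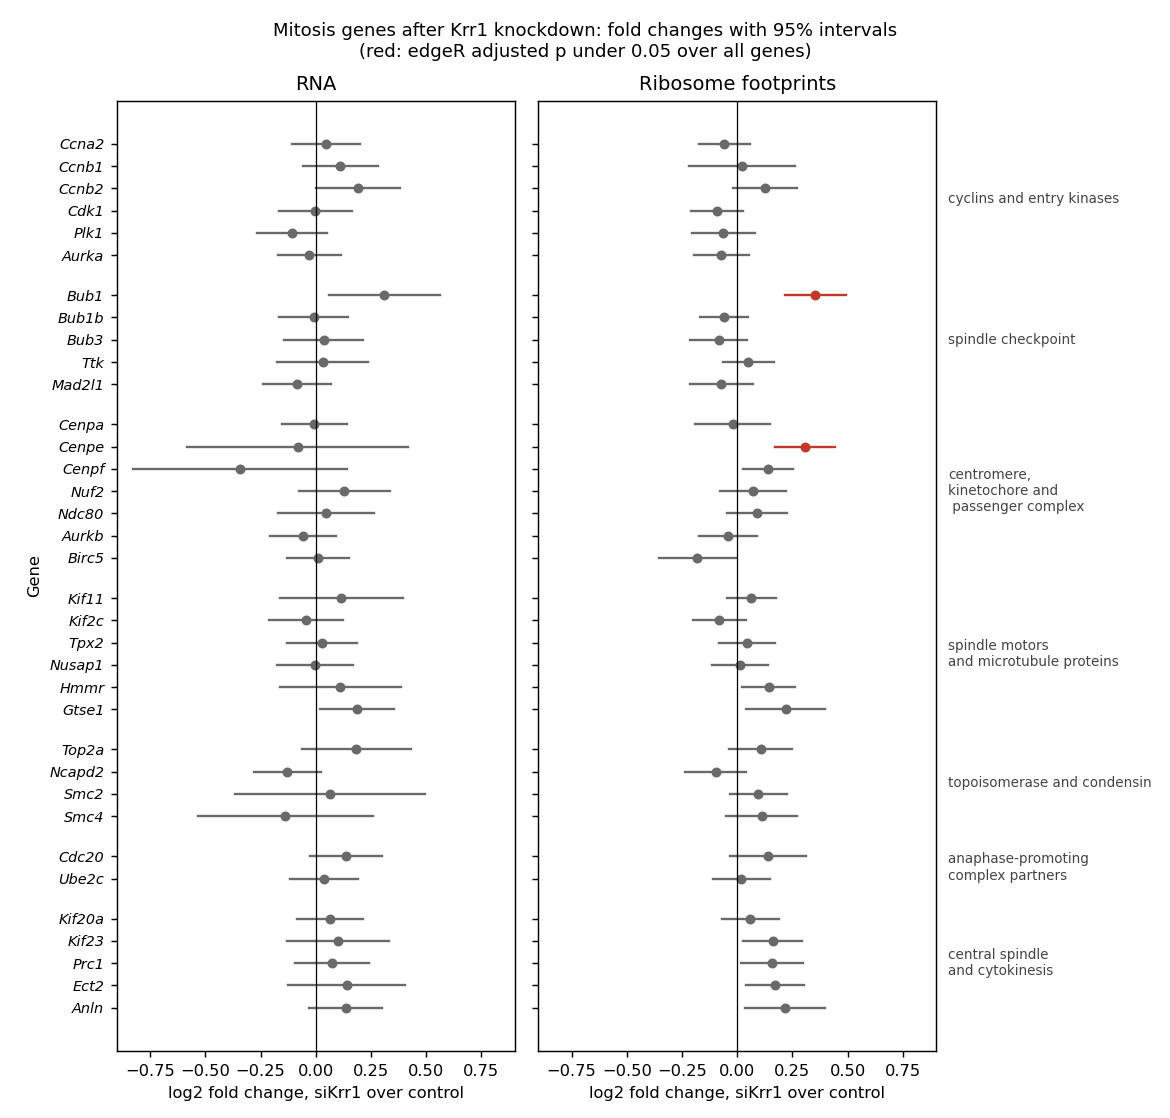
Log2 fold changes (siKrr1 over control, horizontal axis) of the 35 mitosis genes in RNA (left) and footprints (right), grouped by role. Points are edgeR estimates and lines their 95% intervals; the red points, Bub1 at 0.35 and Cenpe at 0.31 in footprints, are those with an adjusted p under 0.05.

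A shared feature of their promoters was read from RefSeq sequence (GRCm38.p6, the build also named mm10), in a window from 250 bases before to 50 bases after each transcription start. The table held 30 of the 35 genes. The CHR element, the site through which MuvB complexes bind late cell cycle promoters, was searched as TTTGAA or as TTCGAA on both strands, and the NF-Y box as CCAAT on both strands; the CHR-type letters contain no CCAAT, and TTCGAA reads the same on both strands. A CHR-type match lay in the window of 23 of 30 members (76.7%) and of 21.7% of 27025 genes with a window. A CCAAT match was also found in 23 of 30 members (76.7%), against 41.1% of all genes. In the shorter window from 150 bases before the start, the CHR-type share was 76.7% of members and 13.7% of all genes. The 4 promoters printed belong to the genes of smallest adjusted p among the members described with all their values and holding a match. They show where the matches lay in these 4 windows and not in those of the other members. Capitals mark CHR-type matches, which read TTCAAA where the motif is on the opposite strand. The Cenpe window held CCAAT but no CHR-type match.
Bub1: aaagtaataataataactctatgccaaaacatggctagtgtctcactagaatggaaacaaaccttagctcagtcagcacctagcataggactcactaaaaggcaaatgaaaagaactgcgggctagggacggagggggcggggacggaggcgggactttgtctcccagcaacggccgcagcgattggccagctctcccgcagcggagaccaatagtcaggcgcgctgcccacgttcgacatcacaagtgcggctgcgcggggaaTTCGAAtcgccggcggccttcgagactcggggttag
Ect2: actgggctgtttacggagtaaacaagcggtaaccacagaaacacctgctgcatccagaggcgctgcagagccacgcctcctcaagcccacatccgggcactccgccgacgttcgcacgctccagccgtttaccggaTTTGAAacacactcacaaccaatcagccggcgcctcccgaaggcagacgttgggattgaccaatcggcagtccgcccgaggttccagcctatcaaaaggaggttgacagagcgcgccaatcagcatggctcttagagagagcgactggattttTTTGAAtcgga
Cenpf: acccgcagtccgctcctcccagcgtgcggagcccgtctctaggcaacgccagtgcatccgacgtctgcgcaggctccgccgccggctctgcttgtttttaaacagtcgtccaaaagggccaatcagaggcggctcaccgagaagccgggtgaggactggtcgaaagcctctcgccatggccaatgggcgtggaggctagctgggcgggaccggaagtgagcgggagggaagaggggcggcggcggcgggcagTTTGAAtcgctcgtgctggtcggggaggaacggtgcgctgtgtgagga
Anln: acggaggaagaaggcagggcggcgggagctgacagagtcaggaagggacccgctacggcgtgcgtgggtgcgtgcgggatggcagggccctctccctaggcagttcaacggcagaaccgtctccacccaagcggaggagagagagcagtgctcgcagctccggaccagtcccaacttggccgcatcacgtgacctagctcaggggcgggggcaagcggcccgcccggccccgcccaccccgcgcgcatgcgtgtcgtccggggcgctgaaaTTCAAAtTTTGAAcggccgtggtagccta
In the Bub1 window (chr2:127831810-127832109, minus strand) the match began at base 15 after the start. In that of Cenpf (chr1:189688037-189688336, minus strand) it began at base 3, and in that of Anln (chr9:22389157-22389456, minus strand) the paired matches began at bases 22 and 29, on opposite strands. The Ect2 window, the first of 2 listed (chr3:27153829-27154128, minus strand) held a match 114 bases before and another 40 bases after the start. A match is a run of letters and not proof of binding, and no binding data were used here.

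The cyclins and entry kinases were not called. Of Ccna2, Ccnb1, Ccnb2, Cdk1, Plk1 and Aurka, 0 of 6 were called in either assay. Over all tested genes 4.8% were called in RNA and 6.07% in footprints. For lists as short as those of the single roles, counts of 0 are near these shares. RNA of Ccnb2, a B-type cyclin, had the highest value of the 6, with 302, 276 and 343 CPM in siKrr1 A, C and D, against 266, 245 and 284 CPM in Lipo, siGFP and siNC. Its groups overlapped through siKrr1 C, and the log2 fold change was 0.19 ± 0.09 (SE; edgeR adjusted p = 0.24). In footprints Ccnb2 was at 278, 245 and 285 CPM in siKrr1 A, C and D, against 246, 229 and 251 CPM in Lipo, siGFP and siNC, a log2 fold change of 0.13 ± 0.07 with overlapping groups. Plk1, the polo-like kinase that drives centrosome maturation and mitotic entry, had the lowest RNA value, with 89.0, 87.3 and 91.8 CPM in siKrr1 A, C and D, against 88.6, 96.8 and 99.3 CPM in Lipo, siGFP and siNC. Its log2 fold change was -0.11 ± 0.07 (edgeR adjusted p = 0.449), and Lipo lay among the knockdown libraries. Footprints of Cdk1, the kinase at the centre of mitotic entry, were at 578, 573 and 633 CPM in siKrr1 A, C and D, against 609.8, 634 and 618 CPM in Lipo, siGFP and siNC. This was the lowest footprint value of the 6 at -0.09 ± 0.05, and siKrr1 D lay within the control range. The RNA of Cdk1 averaged 533 ± 34.7 CPM in knockdown and 526 ± 32.2 CPM in control libraries (SD, n = 3 each), a log2 fold change of 0.00 with a 95% interval from -0.17 to 0.16.

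Among the spindle checkpoint genes Bub1 was called higher in footprints, and the other members were not called. The RNA value of Bub1 was close to its footprint value but was not called. Bub1 is a kinase that docks on unattached kinetochores, where it marks centromeric chromatin and recruits the other checkpoint proteins. Bub1 footprints were at 154, 176 and 174 CPM in siKrr1 A, C and D, against 125, 130.2 and 131 CPM in Lipo, siGFP and siNC. All 3 knockdown libraries lay above the highest control, with siKrr1 A, the lysate with the least Krr1, nearest to the controls. The means were 168 ± 12.5 CPM in knockdown and 129 ± 3.06 CPM in control libraries (SD, n = 3 each), and the log2 fold change was 0.35 ± 0.06 (SE; edgeR adjusted p = 0.00986). Bub1 RNA was at 63.8, 65.5 and 90.5 CPM in siKrr1 A, C and D, against 56.8, 63.2 and 54.4 CPM in Lipo, siGFP and siNC. The RNA groups were also apart, but siKrr1 A exceeded siGFP by little and siKrr1 D stood well above the rest; the log2 fold change was 0.31 ± 0.11 and missed the threshold (edgeR adjusted p = 0.147). The footprint call was lost when any one control was left out, with an edgeR adjusted p of 0.0769 without Lipo, 0.0513 without siGFP and 0.0553 without siNC, while the log2 fold change lay between 0.31 and 0.41 in all 6 fits with a library left out.

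The other checkpoint members did not follow Bub1 past the threshold. Bub3, the propeller protein that carries Bub1 and Bub1b to kinetochores, had footprints of 304, 293 and 273 CPM in siKrr1 A, C and D, against 300.3, 308 and 295 CPM in Lipo, siGFP and siNC. The groups overlapped, at a log2 fold change of -0.08 ± 0.06. Bub1b (BubR1), part of the complex that blocks Cdc20, averaged 445 ± 10.9 CPM in knockdown and 454 ± 12.5 CPM in control footprints (SD, n = 3 each), and its RNA fold change was -0.01 ± 0.07. Mad2l1 (Mad2), whose folded form captures Cdc20, had RNA of 184, 193 and 210.0 CPM in siKrr1 A, C and D, against 213, 196 and 206 CPM in Lipo, siGFP and siNC. Its log2 fold change was -0.09 ± 0.07 (edgeR adjusted p = 0.535), with siKrr1 D inside the control range. Ttk (Mps1), the kinase at the head of the checkpoint, averaged 156 ± 4.87 CPM in knockdown and 147 ± 1.17 CPM in control footprints, which did not overlap but differed by only 0.05 ± 0.05 on the log2 scale.

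At the centromere and kinetochore Cenpe was the member that rose, again in footprints. Cenpe is a kinesin motor that walks chromosomes to the spindle equator. Its footprints were at 203, 201 and 222 CPM in siKrr1 A, C and D, against 173, 155 and 167 CPM in Lipo, siGFP and siNC. The 3 knockdown libraries lay above the 3 controls, with means of 208 ± 11.99 CPM in knockdown and 165 ± 9.17 CPM in control libraries (SD, n = 3 each) and a log2 fold change of 0.31 ± 0.06 (SE; edgeR adjusted p = 0.0165). Its RNA did not show this, with 28.5, 16.4 and 29.0 CPM in siKrr1 A, C and D, against 32.7, 26.7 and 17.6 CPM in Lipo, siGFP and siNC. In RNA siKrr1 C and siNC were both low and the groups overlapped; the log2 fold change was -0.08 ± 0.23 (edgeR adjusted p = 0.879). The footprint call of Cenpe was lost without Lipo (edgeR adjusted p = 0.0657), siGFP (0.0826) or siNC (0.073), with log2 fold changes of 0.27 to 0.34 over the 6 fits.

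Cenpf, a large coiled-coil protein of the outer kinetochore and nuclear envelope, was not called in either assay. Cenpf RNA was at 53.1, 27.9 and 51.7 CPM in siKrr1 A, C and D, against 66.8, 58.9 and 40.3 CPM in Lipo, siGFP and siNC. The log2 fold change of -0.35 ± 0.22 was the lowest of all 35 members in RNA (edgeR adjusted p = 0.417), and siKrr1 C and siNC were the lowest of their groups. Cenpf footprints were at 334, 334 and 353 CPM in siKrr1 A, C and D, against 308, 292 and 308 CPM in Lipo, siGFP and siNC, with the knockdown libraries all above the controls and a log2 fold change of 0.14 ± 0.05 (edgeR adjusted p = 0.131). Nuf2 and Ndc80 form the arm of the Ndc80 complex that grips microtubules. Nuf2 RNA was at 55.1, 59.3 and 70.0 CPM in siKrr1 A, C and D, against 58.3, 50.9 and 56.7 CPM in Lipo, siGFP and siNC, a log2 fold change of 0.13 ± 0.09 with overlapping groups, and Ndc80 RNA was at 0.05 ± 0.10. Birc5 (survivin), which with the kinase Aurkb belongs to the chromosomal passenger complex, had the lowest footprint value of the 35 members. Birc5 footprints were at 277, 267 and 264 CPM in siKrr1 A, C and D, against 283, 341 and 273 CPM in Lipo, siGFP and siNC. siGFP stood above the rest, siNC lay within the knockdown range, and the log2 fold change of -0.18 ± 0.08 was not called (edgeR adjusted p = 0.208). Without siGFP it was -0.07, and Ncapd2, at -0.13, was then the lowest of the 35. Aurkb footprints (-0.04 ± 0.06) and those of the centromeric histone variant Cenpa (-0.02 ± 0.08) were nearer to 0.

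**Figure D2:**
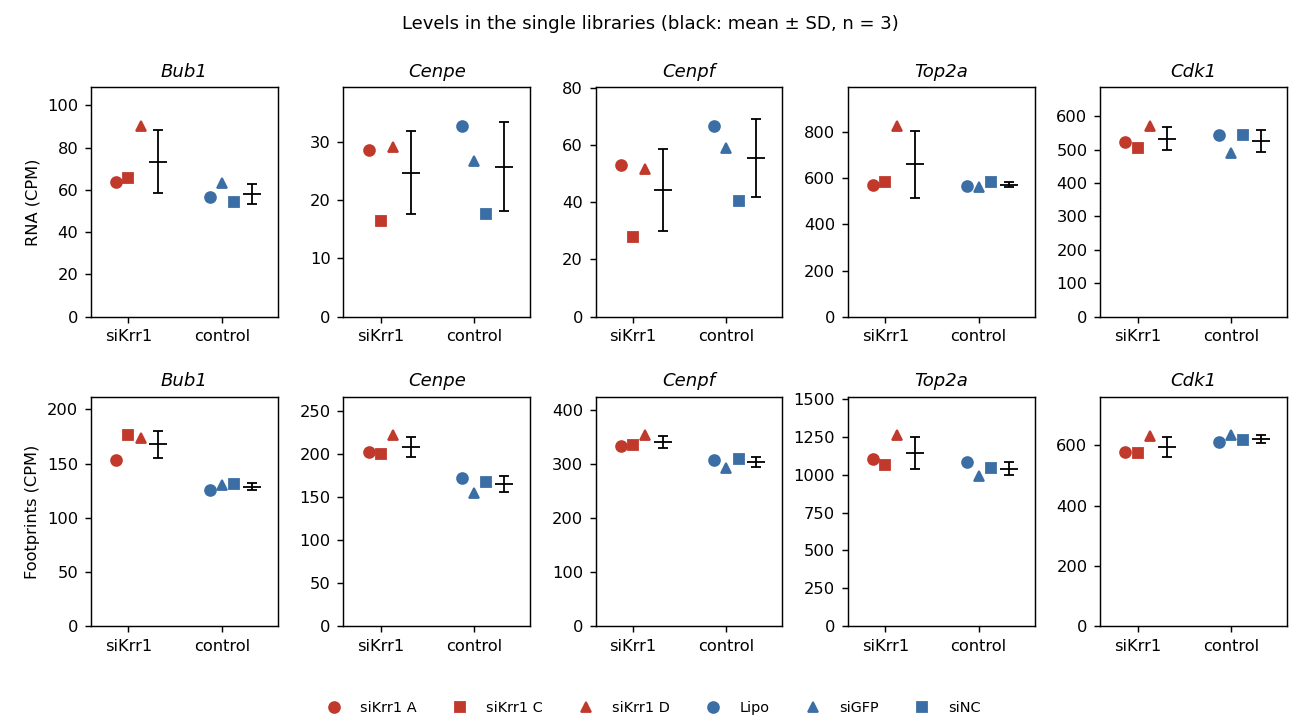
Levels in CPM (vertical axes from 0) of 5 mitosis genes in RNA (top) and footprints (bottom), with siKrr1 lysates in red left of the controls in blue. Bub1 and Cenpe footprints did not overlap between groups, Cenpe and Cenpf RNA was lowest in siKrr1 C and siNC, and Top2a RNA stood out in siKrr1 D at 829.6 CPM.

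Of the spindle motors and microtubule proteins, 0 of 6 were called, against 4.8% of all tested genes in RNA and 6.07% in footprints. Gtse1, a microtubule protein of dividing cells that also regulates p53, was the highest in both assays. Gtse1 RNA was at 249, 218 and 234 CPM in siKrr1 A, C and D, against 198, 218 and 192 CPM in Lipo, siGFP and siNC. The lowest knockdown library lay only just above the highest control, and the log2 fold change was 0.19 ± 0.08 (edgeR adjusted p = 0.185). Gtse1 footprints were at 470.3, 364 and 426 CPM in siKrr1 A, C and D, against 349, 365 and 347 CPM in Lipo, siGFP and siNC, where siKrr1 C lay within the control range and the log2 fold change was 0.22 ± 0.08 (edgeR adjusted p = 0.138). Kif2c, a kinesin that takes microtubule ends apart, was the lowest in both assays, at -0.04 ± 0.08 in RNA and -0.08 ± 0.05 in footprints. Kif2c RNA was at 184, 181 and 184 CPM in siKrr1 A, C and D, against 192, 169.9 and 196 CPM in Lipo, siGFP and siNC, the knockdown libraries lying inside the control range. Its footprints were at 204, 206 and 223 CPM in siKrr1 A, C and D, against 219, 213 and 224 CPM in Lipo, siGFP and siNC, again with overlap. Kif11, the motor that pushes spindle poles apart, Tpx2, the activator of Aurora A, Nusap1 and Hmmr lay between 0.00 and 0.12 in RNA and between 0.01 and 0.14 in footprints.

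Top2a and the condensin subunits gave 0 of 4 calls, against 4.8% of all tested genes in RNA and 6.07% in footprints. Top2a, the topoisomerase that disentangles sister chromatids, had RNA of 574, 583 and 829.6 CPM in siKrr1 A, C and D, against 569, 564 and 586 CPM in Lipo, siGFP and siNC. siKrr1 D alone stood high while siKrr1 A and C were at control level, and the log2 fold change of 0.18 ± 0.11 was not called (edgeR adjusted p = 0.393). Ncapd2, a condensin I subunit, had footprints of 666, 652 and 756 CPM in siKrr1 A, C and D, against 733, 688 and 753 CPM in Lipo, siGFP and siNC. The groups overlapped at -0.10 ± 0.06, and the RNA was at -0.13 ± 0.07. Smc4, a core ATPase of condensin together with Smc2, had RNA of 91.4, 61.7 and 102 CPM in siKrr1 A, C and D, against 114, 91.8 and 70.2 CPM in Lipo, siGFP and siNC. As with Cenpe, siKrr1 C and siNC were low, and the log2 fold change was -0.14 ± 0.18. Smc4 footprints were at 298, 326 and 363 CPM in siKrr1 A, C and D, against 314, 277 and 304 CPM in Lipo, siGFP and siNC, a log2 fold change of 0.11 ± 0.07 with overlap.

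Both partners of the anaphase-promoting complex were uncalled. Cdc20 is its activator and the target of the checkpoint, and Ube2c is the ubiquitin-conjugating enzyme that starts the chains. Cdc20 RNA was at 462, 393 and 445 CPM in siKrr1 A, C and D, against 391, 389 and 387 CPM in Lipo, siGFP and siNC. The 3 controls were nearly equal and all below the knockdown libraries, yet siKrr1 C lay close to them, and the log2 fold change was 0.14 ± 0.07 (edgeR adjusted p = 0.328). Cdc20 footprints were at 432, 361 and 464 CPM in siKrr1 A, C and D, against 376, 373 and 369.9 CPM in Lipo, siGFP and siNC, with siKrr1 C below the controls and a log2 fold change of 0.14 ± 0.08. Ube2c RNA was at 135, 147 and 142 CPM in siKrr1 A, C and D, against 141, 135 and 132 CPM in Lipo, siGFP and siNC, and its footprints were at 383, 346 and 351 CPM in siKrr1 A, C and D, against 349.9, 357 and 337 CPM in Lipo, siGFP and siNC. Ube2c values overlapped in both assays, at 0.04 ± 0.07 in RNA and 0.02 ± 0.06 in footprints.

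The 5 genes of the central spindle and cytokinesis had positive values in both assays, as had 49.8% of all tested genes in RNA and 51.5% in footprints. Of these, 0 of 5 were called, against 4.8% and 6.07% of all tested genes. Without siKrr1 D the RNA log2 fold changes of Kif20a, Kif23, Prc1, Ect2 and Anln were 0.05, 0.02, 0.03, -0.04 and 0.12. Ect2, the exchange factor that activates RhoA at the division plane, had footprints of 315, 295 and 346 CPM in siKrr1 A, C and D, against 282, 274 and 275 CPM in Lipo, siGFP and siNC. The knockdown libraries all lay above the controls, and the log2 fold change was 0.17 ± 0.06 (edgeR adjusted p = 0.12). Ect2 RNA was at 155, 141 and 219 CPM in siKrr1 A, C and D, against 154, 155 and 150.1 CPM in Lipo, siGFP and siNC, where only siKrr1 D stood clearly higher. Anln (anillin), the scaffold of the contractile ring, had footprints of 165, 155 and 140.4 CPM in siKrr1 A, C and D, against 138, 116 and 135 CPM in Lipo, siGFP and siNC. These too did not overlap, though siKrr1 D came within a few CPM of Lipo, and the log2 fold change was 0.22 ± 0.08 (edgeR adjusted p = 0.146). Kif23 and Prc1, which bundle the central spindle, also had footprints without overlap, at 0.16 ± 0.06 each, with edgeR adjusted p of 0.139 and 0.172. Over all tested genes, 17.7% had all knockdown footprint libraries above the controls. Kif20a, the motor that brings the passenger complex to the central spindle, had RNA of 439.8, 427 and 471 CPM in siKrr1 A, C and D, against 424, 405 and 433 CPM in Lipo, siGFP and siNC. Its footprints were at 531, 498 and 580.2 CPM in siKrr1 A, C and D, against 505, 498 and 511 CPM in Lipo, siGFP and siNC, and its values were 0.06 ± 0.07 in RNA and 0.06 ± 0.06 in footprints, with overlap in both.

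Seen over all members, the footprint groups were apart more often than the RNA groups. In footprints 11 of 35 members (31.4%) had all 3 knockdown libraries above all 3 controls, against 17.7% of all tested genes, and 0 of 35 had them all below, against 10.6%. The 11 were Bub1, Ttk, Cenpe, Cenpf, Kif11, Hmmr, Smc2, Kif23, Prc1, Ect2 and Anln. In RNA the knockdown libraries were all higher for 3 members (8.57%), Bub1, Gtse1 and Cdc20, against 15% of all genes, and all lower for 0, against 12.1%. At an unadjusted p under 0.05 in footprints there were 9 members on the higher side and 1, Birc5, on the lower side, against 12% and 10.5% of all genes. Without siKrr1 C the count called in footprints was 5, adding Gtse1, Cdc20 and Ect2 (edgeR adjusted p = 0.0145, 0.0231 and 0.0371), while the number of all genes called was 1337 in place of 806. It was 0 without Lipo, without siGFP and without siNC, with 131, 246 and 203 of all genes called.

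The libraries did not contribute evenly. siKrr1 D was the highest of the 6 RNA libraries for 22 of 35 members, against 30.7% of all tested genes, and the highest of the 6 footprint libraries for 20 of 35, against 24.3%. siGFP was the lowest footprint library for 18 of 35 members, against 20.5% of all genes. The median deviation of the members from the control mean, on the log2 scale, was 0.02, -0.03 and 0.19 in siKrr1 A, C and D in RNA, and from -0.03 to 0.02 in the controls. Over all tested genes the RNA median was -0.003, -0.004 and 0.055 in siKrr1 A, C and D. In footprints that of the members was 0.07, 0.03 and 0.17 in siKrr1 A, C and D, and from -0.04 to 0.02 in the controls. Over all tested genes the footprint median was 0.022, 0.028 and 0.054 in siKrr1 A, C and D. Members in siKrr1 C footprints were thus near all genes, and part of the siKrr1 D deviation was shared by all genes. With siKrr1 D left out, the members had a median log2 fold change of 0.00 in RNA and 0.04 in footprints, and Bub1 and Cenpe were still called in footprints (edgeR adjusted p = 0.0287 and 0.0445). Together the 35 genes took 0.742% to 0.854% of RNA counts in knockdown and 0.739% to 0.775% in control libraries, and 1.04% to 1.15% of footprints in knockdown and 1.02% to 1.05% in control libraries.

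**Figure D3:**
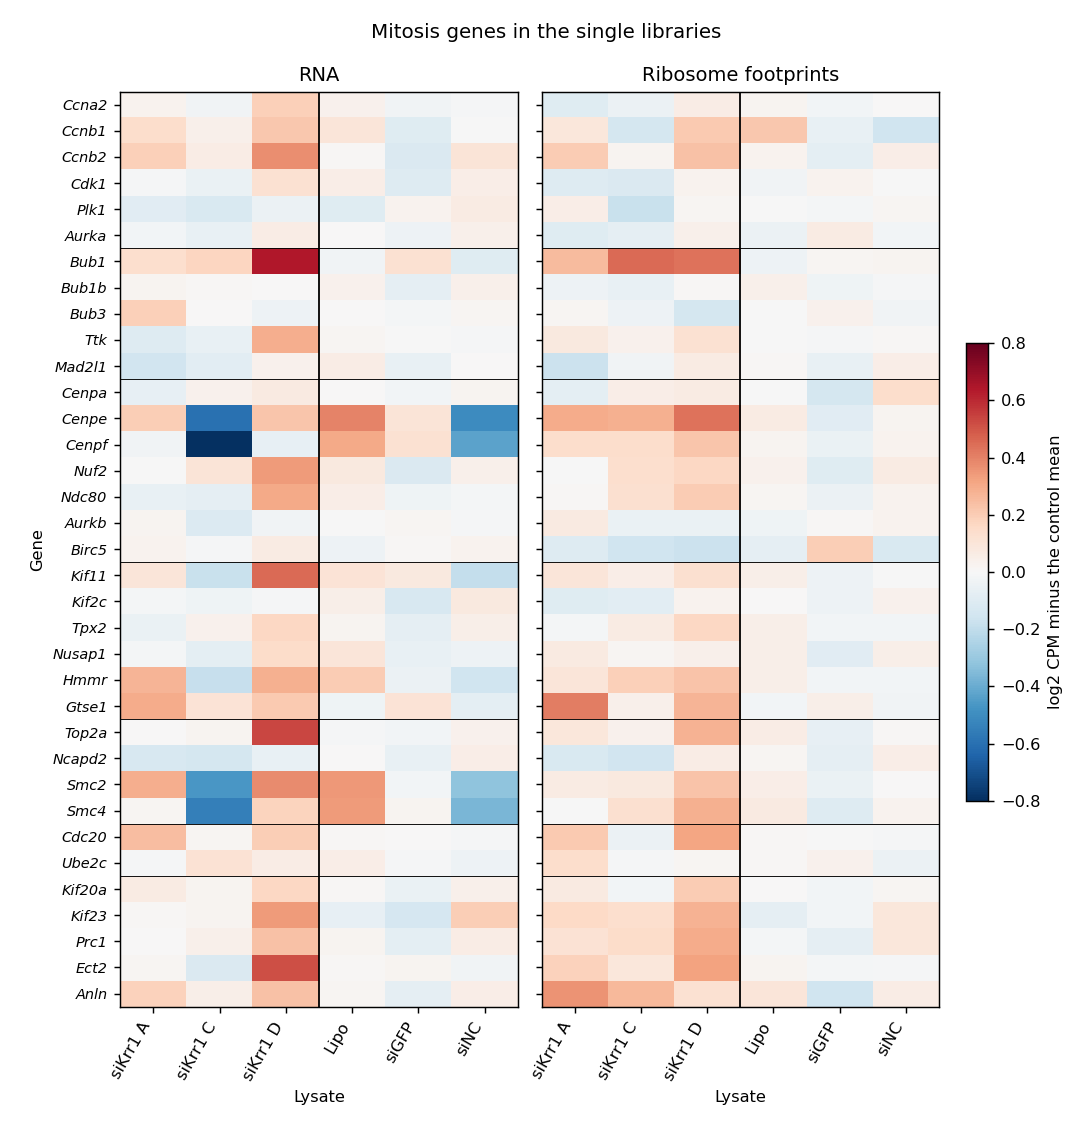
Log2 CPM minus the control mean for the 35 mitosis genes (rows, grouped by role) in the 6 RNA libraries (left) and the 6 footprint libraries (right), siKrr1 lysates left of the black line. In RNA, Cenpe, Cenpf, Smc2 and Smc4 are blue in siKrr1 C and siNC, which the footprints do not show, and siKrr1 D is red for most rows of both panels.

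A few members varied between RNA libraries of the same group while their footprints held steady. The standard deviation of log2 CPM within groups was 0.46 in RNA and 0.08 in footprints for Cenpe, 0.46 and 0.05 for Cenpf, 0.40 and 0.08 for Smc2 and 0.37 and 0.12 for Smc4. Over all members its median was 0.09 in RNA and 0.08 in footprints, beside 0.11 and 0.09 over all genes averaging 10 CPM or more. For Cenpe and Cenpf, siKrr1 C and siNC each lay at least 0.4 (log2) below both other RNA libraries of their group, which held for 2 of 35 members and 0.719% of all tested genes. In footprints this pattern was seen in 0 of 35 members and 0.316% of all genes. Smc2 RNA showed a like order, with 98.4, 58.2 and 104 CPM in siKrr1 A, C and D, against 102, 79.2 and 64.3 CPM in Lipo, siGFP and siNC. The distance of 0.4 was set after the values were seen, and the cause was not tested. With siKrr1 C and siNC both left out, 0 members were called in RNA and 0 in footprints, where 576 and 633 of all genes were called. In that footprint fit Bub1 stood at 0.33 (edgeR adjusted p = 0.0593) and Cenpe at 0.34 (0.0518).

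The ratio of footprint CPM to RNA CPM within a gene, in which gene length largely cancels, differed widely among the mitosis genes. In control lysates its mean ran from 0.334 in Cenpa to 6.63 in Cenpe, and 32 of 35 members lay above the median of 0.857 over 13901 genes. Cenpe and Cenpf (5.59 in controls) stood at the 99.1st and 98.8th percentile of all genes, followed by Smc2 (3.63) and Smc4 (3.30). At the other end were Cenpa, at the 9.28th percentile, Ccnb1 (0.59), the main B-type cyclin, and Bub1b (0.808). The genes of highest ratio were thus also those with the most variable RNA. RNA reads of untranslated regions enter this ratio, so it is not translation per message alone.

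No member changed in this ratio past the threshold when Krr1 was depleted. In the interaction of assay and condition, which tests the change of footprints relative to RNA, 0 of 35 members and 0% of 14236 genes were called by the edgeR quasi-likelihood test. At an unadjusted p under 0.05 there were 0 members, against 2.37% of all genes. With the lysate shared by both assays as a block, 2 members passed that unadjusted threshold, Cenpf and Birc5, against 6.85% of all genes. Their edgeR adjusted p was then 0.679 and 0.721, and of the 6 genes called with the block 0 were members. Without the block, DESeq2 called 0 members and 2 genes in all. The 95% interval lay within 1.5-fold either way for 32 of 35 members, against 58.6% of all genes. The largest values among members were those of Cenpf, with a ratio of 8.01 in knockdown and 5.59 in control lysates and a log2 change of 0.48 ± 0.26 (SE; edgeR adjusted p = 1), and of Cenpe, with 8.74 in knockdown and 6.63 in control lysates and a change of 0.39 ± 0.27 (edgeR adjusted p = 1). For Cenpa the ratio was 0.334 in both groups. Bub1, with log2 fold changes of 0.31 in RNA and 0.35 in footprints, had a log2 change of 0.04 ± 0.14 in this ratio. Its call in footprints alone thus does not show a change particular to footprints. Birc5 had the lowest value, -0.19 ± 0.10, with ratios of 1.04 in knockdown and 1.17 in control lysates.

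**Figure D4:**
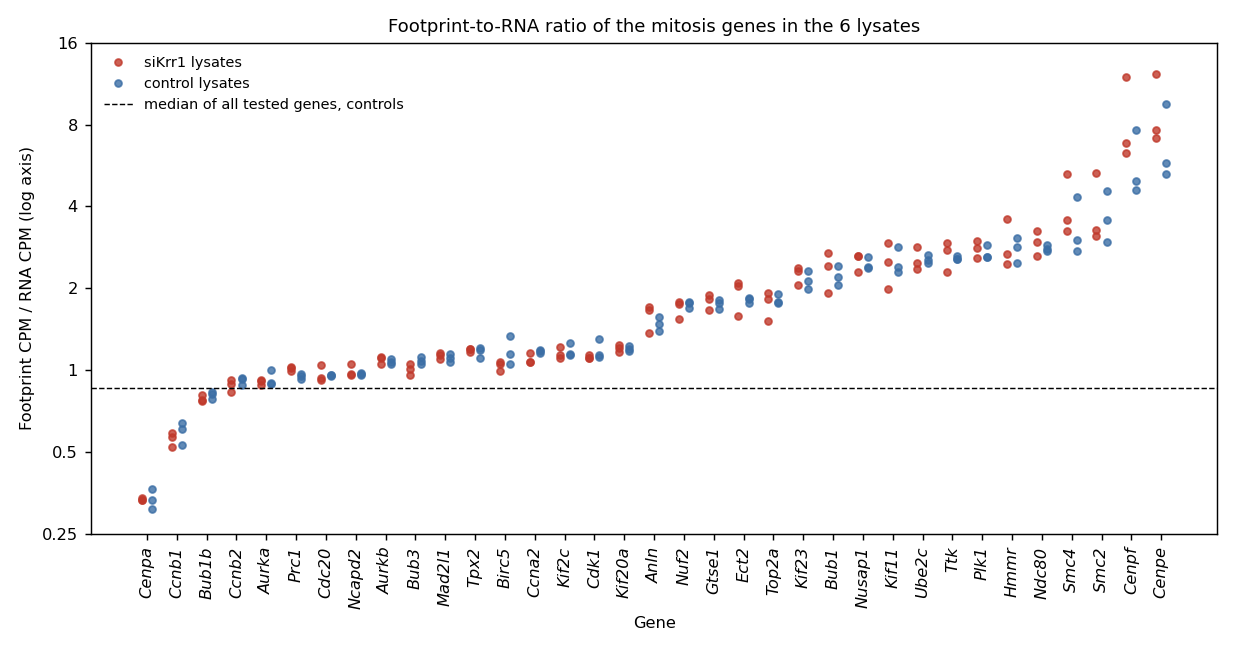
Footprint CPM over RNA CPM (log axis) for the 35 mitosis genes, ordered by the control mean, in siKrr1 lysates (red, left) and control lysates (blue, right). The dashed line is the control median of 0.857 over 13901 genes; Cenpa lies lowest near 0.334 and Cenpe highest.

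For proteins that work together, in lasting complexes or only for a time, the footprints of partners were set against each other in 12 pairs. The two-sided exact permutation test of 3 against 3 cannot go below p = 0.1, so no pair could reach 0.05. Nuf2 over Ndc80 differed between knockdown and control by -0.02 ± 0.03 (SE, log2) and Smc2 over Smc4 by -0.01 ± 0.05, with overlap in both pairs. Bub1 over Bub3 averaged -0.79 ± 0.18 in knockdown and -1.22 ± 0.05 in control libraries (log2 ratio, SD, n = 3 each), a difference of 0.44 ± 0.11 without overlap (exact permutation p = 0.1, adjusted over the pairs 0.6). Ncapd2 over Smc2 averaged 1.11 ± 0.03 in knockdown and 1.31 ± 0.05 in control libraries, a difference of -0.19 ± 0.03, also without overlap (exact permutation p = 0.1, adjusted 0.6). The other 8 pairs overlapped, with differences from -0.21 for Mad2l1 over Cdc20 to 0.12 for Tpx2 over Aurka and for Ccnb1 over Cdk1.

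The wider mitotic machinery was followed through 128 further genes of kinetochores, spindle and cytokinesis, condensin and cohesin, the anaphase-promoting complex and entry control, all of which were tested. In RNA 2 rose and 1 fell (2.34%), and in footprints 3 rose and 2 fell (3.91%), against 4.8% and 6.07% of all tested genes. Whether these shares differ from those of all genes was not tested. Their median log2 fold change was 0.00 in RNA and 0.00 in footprints. In the interaction 0 were called, as were 0 of all 14236 tested genes. Of 38 other kinetochore genes 0 were called in RNA and 0 in footprints, against 4.8% and 6.07% of all tested genes. For a list of 38 genes, counts of 0 are near those shares. Kif18b, a kinesin that trims astral microtubules, rose in both assays, by 0.41 ± 0.09 in RNA and 0.43 ± 0.08 in footprints (edgeR adjusted p = 0.0303 and 0.011). Kif18b footprints were at 167, 134 and 159 CPM in siKrr1 A, C and D, against 111, 115 and 109 CPM in Lipo, siGFP and siNC. Psrc1, a microtubule protein of the spindle, rose by 0.51 ± 0.10 in RNA and 0.50 ± 0.11 in footprints (edgeR adjusted p = 0.018 and 0.0232). Psrc1 RNA was at 181, 145 and 157 CPM in siKrr1 A, C and D, against 108, 125 and 101 CPM in Lipo, siGFP and siNC. The groups of both genes did not overlap.

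In the other lists 3 regulators were called lower and a cohesin subunit higher, in 1 assay each. Fzr1 (Cdh1), the activator of the anaphase-promoting complex after mitosis, fell by 0.38 ± 0.08 in RNA (edgeR adjusted p = 0.0294), with 86.7, 96.6 and 90.2 CPM in siKrr1 A, C and D, against 112, 129.8 and 109 CPM in Lipo, siGFP and siNC. Mybl2 (B-Myb), an activator of the late cell cycle genes, fell by 0.38 ± 0.07 in footprints (edgeR adjusted p = 0.0123), with 402, 455 and 384 CPM in siKrr1 A, C and D, against 528, 555 and 502 CPM in Lipo, siGFP and siNC. Its RNA was at 619, 736 and 589 CPM in siKrr1 A, C and D. Lipo, siGFP and siNC were at 765, 851 and 783 CPM, so the RNA was also lower without overlap, but it was not called. E2f4, a factor of the repressive DREAM complex, fell by 0.22 ± 0.05 in footprints (edgeR adjusted p = 0.0293), with 302, 311 and 294 CPM in siKrr1 A, C and D, against 349.7, 345 and 344 CPM in Lipo, siGFP and siNC. The cohesin subunit Smc1a rose by 0.24 ± 0.06 in footprints (edgeR adjusted p = 0.0398), with 251, 255 and 238 CPM in siKrr1 A, C and D, against 208, 194 and 216 CPM in Lipo, siGFP and siNC. The groups of these 4 genes did not overlap in the assay of the call. In the other assay those of Fzr1, E2f4 and Smc1a overlapped. Each of these calls was lost without at least 1 control library: the highest edgeR adjusted p in footprints was 0.0733 for Kif18b, 0.0731 for Mybl2, 0.123 for Psrc1, 0.148 for E2f4 and 0.155 for Smc1a, and in RNA 0.141 for Kif18b, 0.0834 for Psrc1 and 0.127 for Fzr1. Some were also lost without a knockdown library. In RNA, Kif18b and Fzr1 were lost without siKrr1 A (edgeR adjusted p = 0.0797 each) or siKrr1 D (0.0643 and 0.0709). In footprints E2f4 was lost without siKrr1 D (0.0633), and Smc1a without siKrr1 A (0.0681) or siKrr1 C (0.0665). The calls of Psrc1 and Mybl2, and of Kif18b in footprints, held without any single knockdown library.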

How the data were processed

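RNA-seq (fragments of 40 to 60 nt) and ribosome profiling (about 30 nt) were made from the same 6 lysates, per the labels' protocols. The deposited values are raw read counts per gene symbol. The submitters' processing notes name STAR, HTSeq and mm10; for their versions, the annotation and the strand setting the sources used here give nothing. Entries that name no gene (reads on no feature, 31.2% to 33.4% of RNA entries' counts and 57.5% to 63.3% of footprint counts, and ambiguous reads, 0.0649% to 0.206%) were left out. Strand use is unknown, and 14 of the 35 genes overlap another RefSeq gene, among them a protein-coding one for Ccna2, Aurka, Nusap1, Cdc20, Kif20a, Prc1 and Anln, so reads of both partners may mix. Gene symbols matched RefSeq (GRCm38.p6) for 23284 of 23420 entries. Libraries of a group differed from each other by a chi-square per degree of freedom of 4.03 to 28.7, so none was a duplicate.

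The knockdown columns carry letters where the labels number the siRNAs, so they were assigned to a group and not to a numbered sample. Each assay was fitted with edgeR 4.0.16 (quasi-likelihood, TMM, filterByExpr, R 4.3.3), adjusted by Benjamini-Hochberg over all tested genes, with calls at 0.05; standard errors and intervals come from the F statistic. The interaction used 1 model over 12 libraries, without the lysate as a block. The replicate block is an alternative: lysates pair the assays by the labels, and over 6117 genes averaging 20 CPM or more the deviations from the group mean correlated within a lysate with r from 0.265 to 0.713, above the correlation with other lysates of the group. Deviations within a group sum to 0, so a positive r within a lysate lowers the correlation with the others by construction. Over the members alone r ran from -0.003 in siKrr1 C to 0.459 in Lipo. Alternatives were DESeq2 1.42.0, its size factors, no filter, each library left out, and, added after the data were seen, siNC and siKrr1 C left out together. The fits were tested on simulated data, where most changes of about the size of the Bub1 and Cenpe footprint changes were not called. This was not tested for the members alone, whose median standard error in footprints was 0.06, beside 0.11 over all tested genes. An uncalled member is in any case not shown to be unchanged.

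The members, lists and tests were chosen with earlier results of these data known. Values are given in full for called members and, per role and assay, for the members of highest and lowest fold change, and of the further genes for up to 6 called per comparison. Partner ratios use footprint CPM and not values per codon, since no protein lengths were used here; length cancels in the difference between groups.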

Additional observations from a re-analysis of the deposited data

How the results depend on the processing

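The count of 0 members called in RNA and in the interaction was the same under every alternative run, and the 2 members called in footprints, Bub1 and Cenpe, were also called with DESeq2 size factors, with no filter and with DESeq2. With a library left out, the members called in footprints ranged from 0 to 5. Without siNC and siKrr1 C together there were 0, with 633 of all genes called. The number of all genes called in RNA, 674, was 1059 with no filter, 1184 with DESeq2 and 114 to 1298 with a library left out. In footprints, 806 became 1400 with no filter, 1141 with DESeq2 and 131 to 1337 with a library left out. In the interaction, 0 became 2 with no filter, 2 with DESeq2, 0 to 1 with a lysate left out and 6 with the replicate block. The replicate block changed no call among members; with it Cenpf was at 0.50 ± 0.19 (edgeR adjusted p = 0.679, unadjusted 0.02) and Birc5 at -0.19 ± 0.08 (adjusted p = 0.721, unadjusted 0.0309). No paired analysis was possible within an assay because control and knockdown lysates share no number. The median log2 fold change of the members moved between 0.00 and 0.09 in RNA and between 0.04 and 0.09 in footprints. No called value changed its direction. Depth was not varied, so the parts of read depth and of the spread between lysates in what stayed uncalled were not tested.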
